A study of Mus musculus with 28 samples.

Results

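Heat shock genes, 10 in number, were followed in mice that switched on a human APOBEC3B (A3B) transgene: Hspa1a, Hspa1b, Hspa8, Hsp90aa1, Hsph1, Hspb1, Hspd1, Hspe1, Dnajb1 and Bag3. They were chosen by name as heat shock proteins and co-chaperones, and all 10 were found, out of 35928 gene symbols in the per-transcript files (set 2) and 24845 gene rows in the per-gene table of TPM (transcript abundance scaled for length and library size, set 1). Set 2 held 6 A3B livers and 6 A3B pancreases, with 2 controls for each tissue, and set 1 held 3 A3B and 3 control livers and 3 A3B and 3 control lungs. A3B mice carried human APOBEC3B fused to turbo GFP behind a tetracycline operator in the ColA1 locus, together with the CAGs-rtTA3 driver, which is active in most cell types, so the transgene was not confined to one of them. The transgene was placed in KH2 embryonic stem cells, and the mice were 4 weeks old when doxycycline food began. The labels give 10 days of doxycycline for every set 2 mouse, 14 days for A3B livers 23 and 28 of set 1, 10 days for A3B liver 70 and the A3B lungs, and 15 days for the set 1 controls. For control mice 11, 88, 91 and 92 the study's mouse table lists no doxycycline instead, and a shorter time for control 87, and for the set 2 controls a figure legend of the study says no doxycycline, while the labels and the mouse table give 10 days. The study's methods state that control littermates received doxycycline, as the labels do. With these records in conflict, it is uncertain whether the controls of either set were matched for doxycycline. A3B mice were sampled at the humane endpoint, so transgene expression and severe illness cannot be told apart. Controls mostly carried the A3B transgene without the driver, but control liver 11 carried both and control lung 87 the driver alone. In control liver 11 the transgene stood at 0.144 TPM and in control liver 91 at 0.143 TPM, against 705 to 1705 TPM in set 1 A3B livers. It was thus not switched on in control liver 11, which goes with the mouse table and not with the label of 15 days. The genotype labels of A3B pancreases 44 and 137 and of control pancreases 45 and 168 are swapped against their titles, which set the groups here. In set 2, 7 mice gave both tissues, and in set 1 mice 70 and 91 did.

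Heat shock proteins are molecular chaperones, which hold unfolded proteins and help them to fold. HSP70 proteins take up client proteins that J-domain co-chaperones deliver, nucleotide exchange factors release them, and HSP90 and the mitochondrial HSP60 and HSP10 chamber carry folding further. Under heat or proteotoxic stress the transcription factor HSF1 binds heat shock elements, arrays of inverted nGAAn units, and raises many of these genes together. In liver and pancreas, both of which export large amounts of protein, several of them are also expressed without stress.

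The promoter windows of the members show which of them hold such an array and which share one. Windows of 300 bases (250 before the RefSeq transcription start and 50 after, build GRCm38.p6) were given for 8 of the 10 members, all but Hspa8 and Hsp90aa1. They were searched on both strands for the inverted pairs GAANNTTC and TTCNNGAA, which can overlap and each read the same on both strands and for the 3-unit form, in which both pairs overlap by 1 unit. At least 1 pair was found for 7 members, and in 15.1% of all 32851 windows. The 3-unit form was found for 3 members, Hsph1, Hspd1 and Hspe1, and in 0.603% of all windows. Neither window of Dnajb1 held these letters. The lines give 26 bases around sites in windows of the members whose levels are described most closely, 5′ to 3′ on the gene's strand, with the GAA and TTC units in capitals.
Hspa1a, chr17:34972244-34972269, minus strand: aaactgctgGAAgaTTCctggcccca
Hspa1b, chr17:34959326-34959351, minus strand: aaactgctgGAAgaTTCctggcccca
Hspb1, first site, chr5:135887793-135887818, plus strand: tcaacaagaGAAgtTTCcagatgggg
Hspb1, second site, chr5:135887813-135887838, plus strand: atgggggcaGAAccTTCctggccccg
Hspd1, chr1:55088055-55088080, minus strand: ggccTTCcgGAAggTTCtaGAAcgga
Hspe1, chr1:55088055-55088080, plus strand: tccgTTCtaGAAccTTCcgGAAggcc
The pair of Hspa1a and that of Hspa1b stand in identical letters from 104 to 97 bases before the start, and the windows of these neighbours on chromosome 17 agree at 296 of 300 positions. The Hspd1 and Hspe1 lines are the same 26 base pairs read from opposite strands, since these genes lie head to head on chromosome 1. Hspb1 had a pair from 117 to 110 and another from 97 to 90 bases before its start. A match of letters is a description of the window and no measure of HSF1 binding.

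Depth and quality bear on the values as follows. The set 2 libraries held 65161064 to 118976013 estimated counts, while the depth of set 1 is unknown because its table gives TPM only. The transgene row of the set 1 table was at 90.6 to 1705 TPM in A3B samples and at 0.0928 to 0.5257 TPM in controls, and no such row was used for set 2. Acinar marker genes summed to 415812 and 416777 TPM in the control pancreases and to 74742 to 193534 TPM in the A3B pancreases, and the marker lists of duct (59.1 and 120 against 1309 to 3083 TPM), macrophage (49.6 and 568.5 against 1974 to 5776 TPM) and fibroblast (41.3 and 178 against 1013 to 1616 TPM) stood higher there. In such bulk samples, fewer cells of a type and less RNA per cell cannot be told apart. Hepatocyte markers summed to 701 to 862 TPM in control lung 88 and A3B lungs 70 and 74 but to 32.4 to 77.8 TPM in the other lungs, and muscle markers to 124.9, 59.6 and 295 TPM in A3B livers 48 and 125 of set 2 and 28 of set 1 but to 2.66 to 10.7 TPM in the other livers. In set 2, acinar markers summed to 303 and 600 TPM in A3B livers 44 and 153 (6.80 to 19.4 TPM in the other A3B livers, 79.4 and 126 TPM in controls), and hepatocyte markers to 1216 and 1049 TPM in A3B pancreases 44 and 49 (199 to 430 TPM in the other A3B pancreases, 57.4 and 82.1 TPM in controls). Members' values without A3B livers 48 and 125, without A3B livers 44 and 153, without A3B pancreases 44 and 49, without A3B liver 28 and without those lungs were computed, and stand below where a call depended on them. TPM levels of different genes were not compared within set 1, where the control livers' mean stood from 0.0714 (Hspe1) to 5.96 (Hspd1) times that of set 2 for the same gene.

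**Figure D1:**
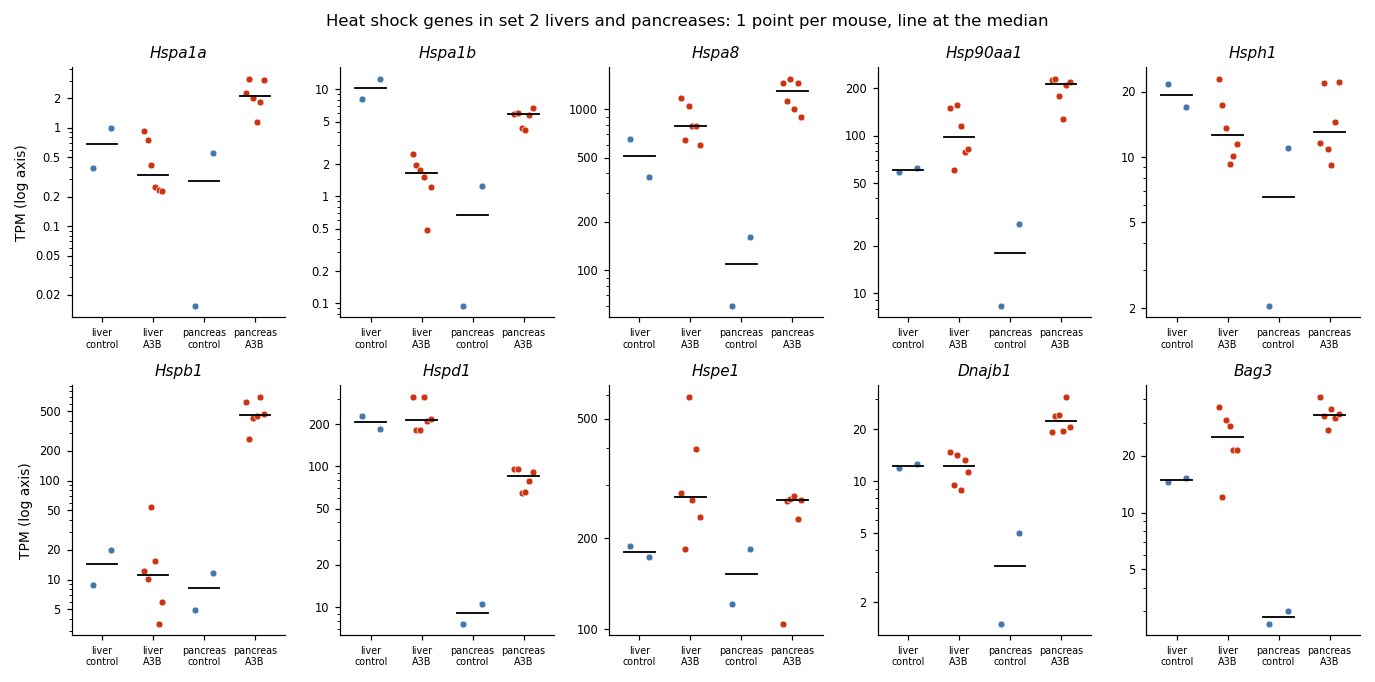
TPM of each member (log axis) in the 16 set 2 samples, 1 panel per gene, with controls in blue, A3B mice in red and a line at each group's median. Hspb1 stands at 265 to 705 TPM in A3B pancreases and at most at 54.0 TPM in the other groups, and Hspa1b is lower in all A3B livers than in both control livers.

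The inducible HSP70 genes Hspa1a and Hspa1b encode nearly the same protein, are barely expressed in unstressed cells and are the classical readout of HSF1. In set 2, Hspa1b was at 8.14 and 12.6 TPM in the 2 control livers, and in the 6 A3B livers it ranged from 0.488 to 2.47 TPM with a median of 1.64. Every A3B liver thus lay below both controls. Hspa1b fell by 3.12 on the log2 scale (SE 0.47, edgeR's quasi-likelihood test, adjusted p = 0.0100). It was the single member of 10 called lower in the set 2 liver, where 2.41% of all tested genes were called lower, and none was called higher, against 1.25% of all genes. The call did not hold without control liver 168, where the value was -2.71 with an adjusted p of 0.139, or without A3B livers 44 and 153, which carry acinar RNA, where it was -3.18 with an adjusted p of 0.0573. In the same livers hepatocyte markers summed to 39227 to 100123 TPM in A3B mice and to 96221 and 155646 TPM in controls (0 of 10 called), adipocyte markers to 82.6 to 388 against 21.0 and 25.9 TPM (1 of 6 tested called higher) and neutrophil markers to 7.87 to 129 against 4.24 and 6.43 TPM (0 of 8 called). The part of these in the Hspa1b value was not tested.

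Hspa1a in the same livers was lower, at 0.390 and 0.991 TPM (90 and 227 estimated counts) in the controls and at 0.225 to 0.940 TPM, median 0.332, in A3B livers (40 to 179 estimated counts). The groups overlapped and the change of -0.98 (SE 0.69) was not called (adjusted p = 0.423). The split between these genes is uncertain, because 63.8% of the 31-base words in the Hspa1a transcript and 67.6% of those in Hspa1b occur in both, and the transcript quantifier assigns reads by such words. Summed, the pair was at 8.53 and 13.5 TPM in control livers and at 0.723 to 3.41 TPM in A3B livers. The summed counts were lower by the same test, with a log2 fold change of -2.83 (SE 0.46, adjusted p = 0.0149).

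Livers of set 1 gave the same order. Hspa1b was at 0.424, 1.27 and 1.295 TPM in A3B livers 23, 28 and 70, and at 12.9, 1.60 and 2.39 TPM in control livers 11, 91 and 92. Control liver 11, the double transgenic one, was far above the others, and the A3B livers lay below all 3. The log2 difference of -1.35 (SE 0.62) was not called by limma (adjusted p = 0.179) and was -0.61 without control liver 11. This scale differs from that of the counts in set 2, where limma on log2(TPM + 1) gave -2.16. Hepatocyte markers summed to 6187 to 9211 TPM in these A3B livers against 10300 to 12110 TPM in the controls (1 of 9 tested called lower), and adipocyte markers to 691 to 863 against 37.6 to 61.4 TPM (2 of 4 called higher), and their part was not tested either. Hspa1a was at 0.563, 1.20 and 1.90 TPM against 7.37, 1.31 and 2.12 TPM in the same order, with overlapping groups and a difference of -0.87 (SE 0.52, adjusted p = 0.277).

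In the pancreas the pair stood the other way. Hspa1b was at 0.0950 and 1.25 TPM in control pancreases 45 and 168, and at 4.19 to 6.67 TPM, median 5.84, in the 6 A3B pancreases. Hspa1a was at 0.0154 and 0.557 TPM in those controls and at 1.16 to 3.16 TPM, median 2.12, in A3B pancreases. All A3B samples were above both controls for both genes, where TPM of the groups did not overlap for 71.9% of all genes. The controls differed from each other by a larger ratio than the A3B samples did, and control 45 held 21 estimated counts of Hspa1b and 4 of Hspa1a. With limma on log2(TPM + 1), Hspa1b was at 2.03 and Hspa1a at 1.33, where the median of all genes was 1.75. On counts scaled by edgeR's trimmed mean of M-values (TMM), the log2 changes of 1.21 for Hspa1b (SE 0.54, adjusted p = 0.113) and 1.18 for Hspa1a (SE 0.74, adjusted p = 0.248) were not called. They were 3.01 and 4.17, both called, without control pancreas 168, and 0.48 and 0.33 without control 45.

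In lungs Hspa1b was at 13.2, 11.1 and 9.20 TPM in A3B lungs 69, 70 and 74, and at 6.41, 6.35 and 4.81 TPM in control lungs 87, 88 and 91. It was higher in every A3B lung, by 0.82 on the log2(TPM + 1) scale (SE 0.16, limma, adjusted p = 0.0105), and it remained called with any 1 lung left out. Hspa1a was at 23.3, 19.8 and 14.6 TPM against 13.3, 12.8 and 10.9 TPM, a difference of 0.58 (SE 0.17, adjusted p = 0.0390) that was kept when lung 74 was left out and lost with any 1 of the others left out. Without lungs 88, 70 and 74, which carry hepatocyte RNA, the differences were 1.11 for Hspa1b and 0.90 for Hspa1a. That fit holds 1 A3B lung and 2 controls, with the lone lung assumed to vary as the others do. It cannot show whether the calls hold. Adipocyte markers summed to 558 to 1672 TPM in A3B lungs against 271 to 527 TPM in controls (2 of 8 called higher, against 16.1% of all genes). Endothelial markers summed to 1124 to 1425 against 1453 to 1659 TPM (3 of 8 called lower, against 20.8%). The part of either was not tested.

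The contrast between tissues was tested directly by an interaction term. In set 2 the A3B difference of Hspa1b was 4.49 log2 units more positive in the pancreas than in the liver (SE 0.83, edgeR, adjusted p = 0.00541), and this call held with any 1 control sample left out. With the mouse as a block it was 5.22 (adjusted p = 0.0106), and Hspa1a, which was at 2.33 and not called without the block (adjusted p = 0.169), was at 3.43 with it (adjusted p = 0.0437). Of the 10 members, 3 were called more positive in the pancreas (Hspa1b, Hspb1 and Dnajb1), against 6.87% of all genes, and 1 more negative (Hspe1), against 5.02%. These shares rest on single libraries. The 1368 more positive and 1001 more negative genes became 432 and 114 without control liver 45 and 538 and 158 without control liver 168. They became 421 and 289 without control pancreas 45 and 1032 and 804 without control pancreas 168. In set 1 the lung minus liver difference of Hspa1b was 2.17 (SE 0.72, adjusted p = 0.0754) and that of Hspa1a 1.45 (SE 0.59, adjusted p = 0.130). No member was called in that test, where 1.94% of all genes were called more positive and 8.81% more negative. An unadjusted p under 0.05 was seen for 3 members and for 4026 of 13477 genes. With the mouse as a block, through limma's estimated correlation, Hspa1b was at 1.90 and called (adjusted p = 0.0491).

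**Figure D2:**
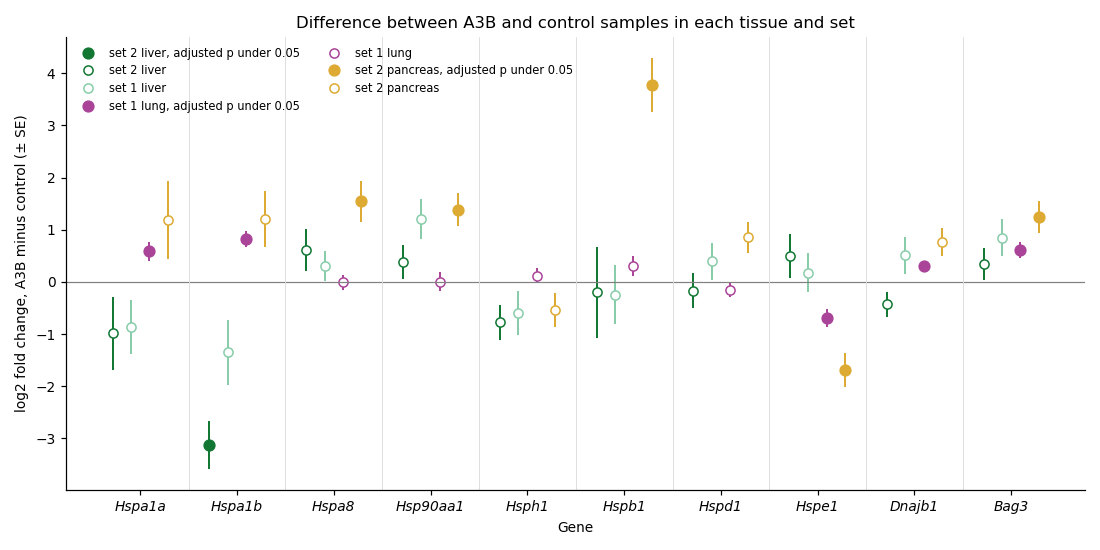
Log2 fold change of each member between A3B and control samples (points, bars ± SE) in the 4 comparisons, with filled points for an adjusted p under 0.05. Hspa1b is at -3.12 in the set 2 liver and at 0.82 in the lung, and Hspb1 is at 3.77 in the pancreas.

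The pancreas held the greatest number of called members together with the lung. In the set 2 pancreas 4 of 10 members were called higher, Hspb1, Hspa8, Hsp90aa1 and Bag3, against 17.0% of all genes, and 1 lower, Hspe1, against 14.9%. TPM of the A3B and control samples did not overlap for 8 members, all of them higher in A3B mice, against 71.9% of all genes, so a lack of overlap was common in this tissue. In the set 2 liver it was seen for 1 member, against 29.7% of all genes.

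Hspb1 encodes HSP27 (HSP25 in mice), a small heat shock protein that binds unfolding proteins without ATP. It was at 4.90 and 11.6 TPM in the control pancreases and at 265 to 705 TPM, median 461, in the A3B pancreases. The mean of A3B pancreases was 491 ± 156 TPM (SD, n = 6), which is 59.7 times the control mean of 8.22 ± 4.70 TPM (SD, n = 2). It rose by 3.77 on the log2 scale after TMM scaling (SE 0.52, adjusted p = 0.000694), and was called with any 1 sample left out, at 3.61 to 3.93. Duct, macrophage and fibroblast markers, whose summed TPM stood higher in the same samples, are given above. Under TMM scaling 4 of 8 duct, 8 of 10 macrophage and 7 of 8 fibroblast markers were called higher, against 17.0% of all genes. Their part in this result was not tested.

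In the liver Hspb1 did not follow. It was at 8.82 and 20.1 TPM in set 2 controls and at 3.58 to 54.0 TPM, median 11.2, in A3B livers, where A3B liver 49 alone was above 15.5 TPM. The log2 difference was -0.20 (SE 0.87, adjusted p = 0.914), and its sign turned with counts scaled by totals (0.37), without A3B livers 44 and 153 (0.092) and with some single samples left out. In set 1 it was at 1.41, 5.93 and 0.915 TPM in A3B livers 23, 28 and 70 and at 5.31, 1.51 and 2.38 TPM in controls 11, 91 and 92, and in A3B lungs 69, 70 and 74 at 39.7, 39.4 and 25.7 TPM against 27.4, 31.02 and 24.2 TPM in controls 87, 88 and 91. Both pairs of groups overlapped and neither difference was called (-0.25, SE 0.56, in liver and 0.31, SE 0.19, in lung), though the lung value was 0.51 and called without A3B lung 74 (adjusted p = 0.0357). The pancreas minus liver term of Hspb1 was 4.15 (SE 1.13, adjusted p = 0.0279). It was not called with the mouse as a block (4.62, adjusted p = 0.0811) or with any 1 control sample left out (3.26 to 4.72).

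Hspa8 encodes the constitutive HSP70 (HSC70), which also uncoats clathrin vesicles. In the pancreas it was at 60.1 and 160 TPM in controls and at 894 to 1547 TPM, median 1294, in A3B mice, without overlap. It rose by 1.54 on the log2 scale (SE 0.39, adjusted p = 0.0135), which was lost without control 168 (1.44, adjusted p = 0.0558). In set 2 livers it was at 654 and 379 TPM in controls and 601 to 1174 TPM in A3B mice, with overlap and a difference of 0.61 (SE 0.41, adjusted p = 0.398). In set 1 Hspa8 was at 353 to 440 TPM in A3B livers against 274 to 382 TPM, and at 206 to 302 TPM in A3B lungs against 254 to 262 TPM, and neither difference was called.

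Hsp90aa1 encodes the inducible HSP90 alpha, which matures kinases and steroid receptors. It was at 8.32 and 27.4 TPM in control pancreases and at 128 to 229 TPM, median 212, in A3B pancreases, and rose by 1.38 on the log2 scale (SE 0.32, adjusted p = 0.00849), a call lost without control 45 (1.32, adjusted p = 0.0562). In set 1 livers it was at 442, 684 and 293 TPM in A3B mice 23, 28 and 70, all above the 228, 166 and 189 TPM of controls 11, 91 and 92. That difference of 1.20 (SE 0.38) missed the threshold (limma, adjusted p = 0.0818) and passed it without A3B liver 70 (1.51, adjusted p = 0.0429). In set 2 livers the ranges of 60.7 to 157 and 58.4 to 62.5 TPM overlapped and the value was 0.38 (SE 0.33). In lungs it was 0.01 (SE 0.18), and negative after quantile normalization.

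Bag3 encodes a nucleotide exchange factor that links HSP70 to selective autophagy. It was at 2.58 and 3.01 TPM in control pancreases and at 27.5 to 41.2 TPM, median 33.0, in A3B pancreases. It rose there by 1.25 on the log2 scale (SE 0.31, adjusted p = 0.0131), which was lost without control 168 (0.85, adjusted p = 0.0915). In lungs it was at 115, 102 and 83.3 TPM in A3B mice 69, 70 and 74 and at 60.4, 74.6 and 59.4 TPM in controls 87, 88 and 91, higher by 0.61 (SE 0.15, adjusted p = 0.0210), a call lost without lung 87, 91, 69 or 70. In set 1 livers it was also above all controls, with 78.5, 87.2 and 47.2 TPM against 39.7, 28.9 and 46.6 TPM, but the 0.85 (SE 0.36) was not called (adjusted p = 0.148). In set 2 livers the value was 0.34 (SE 0.30). The estimates of Bag3 were thus positive in all 4 comparisons, and called in 2 of them.

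Dnajb1 encodes HSP40, the J-domain protein that delivers clients to HSP70 and helps to shut HSF1 off. In the pancreas it was at 1.499 and 4.997 TPM in controls and at 19.2 to 30.7 TPM, median 22.2, in A3B mice, and the log2 change of 0.77 (SE 0.27) lay just short of the threshold (adjusted p = 0.0509). In set 2 livers the controls, at 11.98 and 12.6 TPM, lay within the A3B range of 8.88 to 14.8 TPM, with a change of -0.43 (SE 0.23, adjusted p = 0.296). The difference between those tissues was 1.37 (SE 0.35, adjusted p = 0.0218, and 1.36 with the mouse as a block, adjusted p = 0.0286), and was not called without control liver 45, control liver 168 or control pancreas 45 (1.13 to 1.53). In lungs it was at 59.4, 53.8 and 53.4 TPM against 46.4, 45.2 and 43.2 TPM, higher by 0.30 (SE 0.09, adjusted p = 0.0370), a call that was lost with any 1 lung left out. In set 1 livers it was 0.51 (SE 0.36).

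Hsph1 encodes HSP110, a nucleotide exchange factor of HSP70. It was the member whose difference was called in none of the 4 tissue comparisons and was negative in 3, of which the pancreas turned positive when counts were scaled by totals. It was at 9.31 to 23.0 TPM in A3B livers of set 2 against 21.7 and 17.1 TPM, with a change of -0.78 (SE 0.34, unadjusted p = 0.0470, adjusted p = 0.211), and at 10.0, 22.1 and 30.0 TPM against 30.1, 25.0 and 32.5 TPM in set 1, with a change of -0.59 (SE 0.42). In the pancreas the TMM-scaled change was -0.54 (SE 0.33, adjusted p = 0.240), while its TPM of 9.18 to 22.2 in A3B mice overlapped the 2.05 and 11.0 TPM of controls. In the lung it was 0.12 (SE 0.15).

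Hspd1 and Hspe1, which encode the mitochondrial chaperonin HSP60 and its lid HSP10 and share the element shown above, differed in which calls they received. In the pancreas Hspd1 was at 7.63 and 10.5 TPM in controls and at 65.2 to 95.6 TPM, median 85.3, in A3B mice, a change of 0.86 (SE 0.30, adjusted p = 0.0506). Hspe1 was at 121 and 184 TPM in controls and at 104 to 277 TPM, median 268, in A3B mice, so that its TPM groups overlapped. The TMM-scaled change of Hspe1 was -1.68 (SE 0.32, adjusted p = 0.00336). With counts scaled by totals both genes were positive, at 3.18 for Hspd1 and 0.63 for Hspe1, as they were with limma on TPM (3.04 and 0.59), and Hspe1 was then not called. In lungs Hspe1 was at 2.46, 2.58 and 3.33 TPM in A3B mice 69, 70 and 74 and at 5.41, 3.86 and 6.13 TPM in controls 87, 88 and 91, with a log2 difference of -0.68 (SE 0.17, limma, adjusted p = 0.0220) that was not called without lung 87, 91, 69 or 70. Hspd1 in lungs was at 262 to 348 TPM against 309 to 392 TPM, with overlap (-0.15, SE 0.15). In livers of both sets neither gene was called, with Hspe1 at 0.49 (SE 0.42) and 0.18 (SE 0.37) and Hspd1 at -0.16 (SE 0.33) and 0.40 (SE 0.35) in sets 2 and 1.

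Transcript length moved with these comparisons. Hspe1 has a mean transcript length of 775 bases, weighted by TPM, and Hspb1 of 903 bases, while the other 8 members have 1975 to 2993 bases. Among genes under 1000 bases the median log2 change was -0.66 in the pancreas and -0.45 in the lung, and 28.4% and 49.0% of them were called lower. Among genes of 4000 bases or more the medians were 0.35 and 0.30. The set 1 liver had the same order, with 0.0025 in the short and 0.72 in the long class. Relative to its own length class Hspe1 was at -1.02 in the pancreas and -0.24 in the lung, and Hspb1 at 4.43 in the pancreas. In the set 2 liver the short class had a median of 0.47. The part of length in the Hspe1 calls was not tested.

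**Figure D3:**
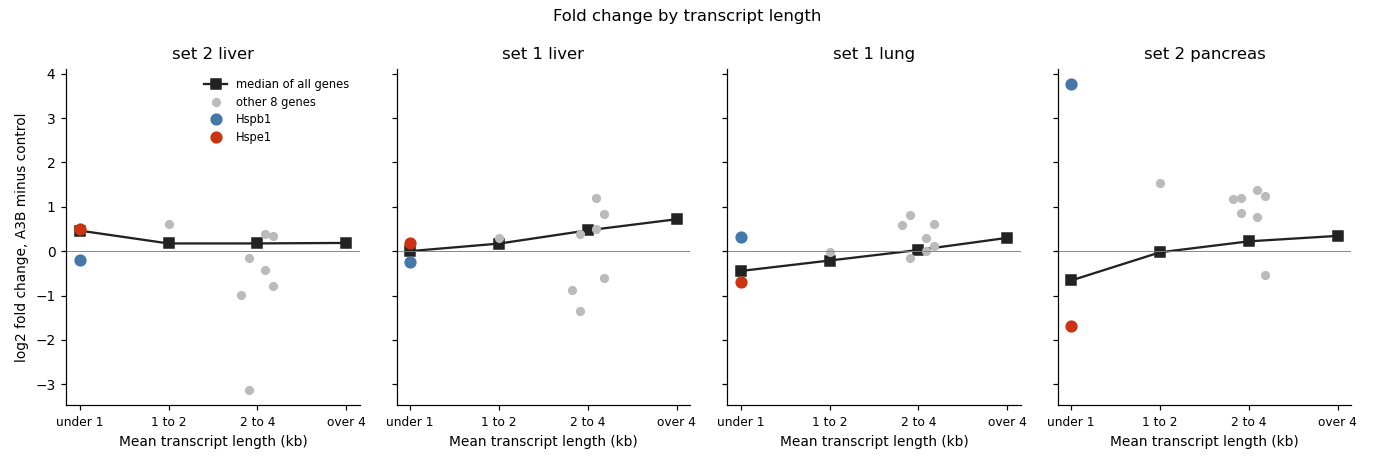
Log2 fold change (vertical axis) by mean transcript length in kb (horizontal axis) in the 4 comparisons, with the median of all tested genes per length class in black, Hspe1 in red, Hspb1 in blue and the other 8 members in grey. The medians climb from -0.45 to 0.30 in the lung and from -0.66 to 0.35 in the pancreas, from 0.0025 to 0.72 in the set 1 liver, and stay between 0.17 and 0.47 in the set 2 liver.

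The scaling decides the signs of some members in the pancreas. TMM factors were 0.210 and 0.443 for the control pancreases and 1.297 to 1.79 for A3B pancreases, so controls, in which acinar transcripts take a large share, were scaled up. With counts scaled by their totals the median of all tested genes was 2.29 rather than 0.09, and 13483 genes were called higher and 210 lower in place of 3252 and 2848. Under total scaling 9 of the 10 members were called higher, against 70.4% of all genes. Hsph1 stood at 1.53 (adjusted p = 0.0218) and Hspe1 at 0.63 (adjusted p = 0.162). Measured from the median of all genes, Hspb1 was at 3.68 under TMM and 3.62 under totals, Bag3 at 1.15 and 1.304, Hsph1 at -0.63 and -0.76, and Hspe1 at -1.78 and -1.65. Without A3B pancreases 44 and 137, whose genotype labels conflict with their titles, 5 members were called.

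**Figure D4:**
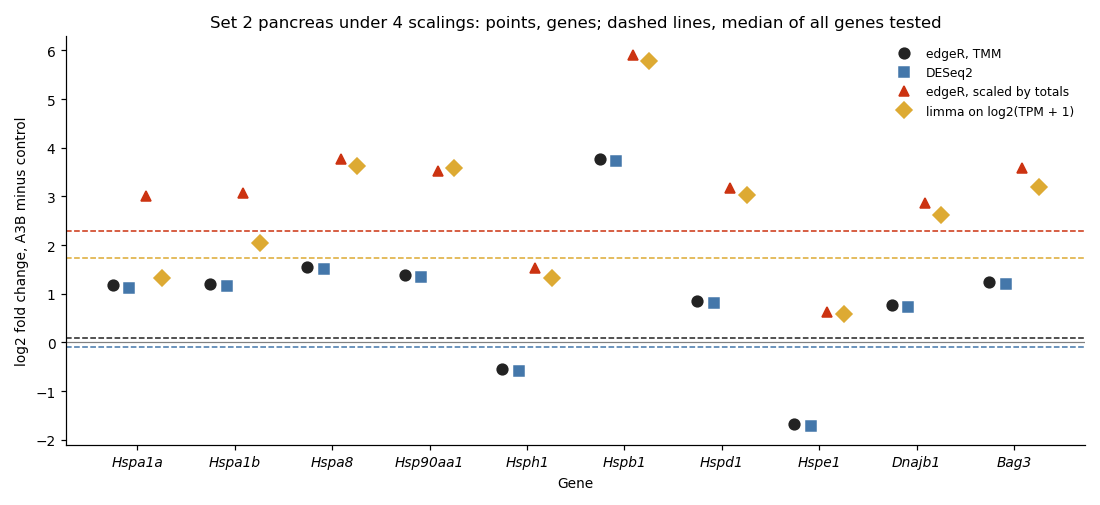
Log2 fold change of each member in the set 2 pancreas under 4 scalings (symbols), with the median of all tested genes under each as a dashed line. Under totals and TPM all members are above 0, with Hsph1 and Hspe1 below the dashed line of their own scaling (and Hspa1a too under TPM), and under TMM and DESeq2 Hsph1 and Hspe1 lie below 0.

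In the lung 4 members were called higher, Hspa1a, Hspa1b, Bag3 and Dnajb1, against 16.1% of all genes, and 1 lower, Hspe1, against 20.8%. TPM did not overlap for 5 members, the same ones, against 53.9% of all genes. Left out 1 at a time, lungs 87, 91, 69 and 70 each left 1 call (Hspa1b), and lung 88 left 3 (Hspa1b, Bag3 and Hspe1). Lung 74 left 5, of which 4 were called with all lungs (not Dnajb1) and Hspb1 was added. Calls over all genes, 2191 higher and 2838 lower with all lungs, also fell, to 1384 and 1703 without lung 70 and to 1452 and 1546 without lung 69. Without lungs 88, 70 and 74 only 1 A3B lung is left, so the member calls cannot be judged there. Hspa8 (-0.01, SE 0.15), which turns sign with 1 lung left out, differed by less than its standard error.

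In the set 1 liver no member was called by limma, where 6.07% of all genes were called higher and 1.86% lower. An unadjusted p under 0.05 was seen for 2 members, Hsp90aa1 and Bag3, and for 3755 of 11507 genes. TPM did not overlap for 3 members, Hsp90aa1 and Bag3 above and Hspa1b below the controls, against 38.9% of all genes. The median of all genes was 0.39 in that comparison and 0.04 after quantile normalization, which also changed the split of all calls from 699 higher and 214 lower to 317 and 358. In the set 2 liver the corresponding medians were 0.21 with TMM and 0.67 with totals, with 218 higher and 418 lower against 878 and 241. Neither setting changed which members were called in the livers. The shares of all genes called in livers rest on single libraries. In set 1 the 699 and 214 calls became 1 and 0 without control 91, 7 and 2 without control 92, 43 and 12 without A3B liver 23, and 1362 and 200 without control 11, and the Dnajb6 and Rbm3 calls given below share that limit. In set 2 the 218 and 418 calls became 10 and 64 without control 45, 3 and 70 without control 168, and 653 and 943 without A3B liver 49.

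**Figure D5:**
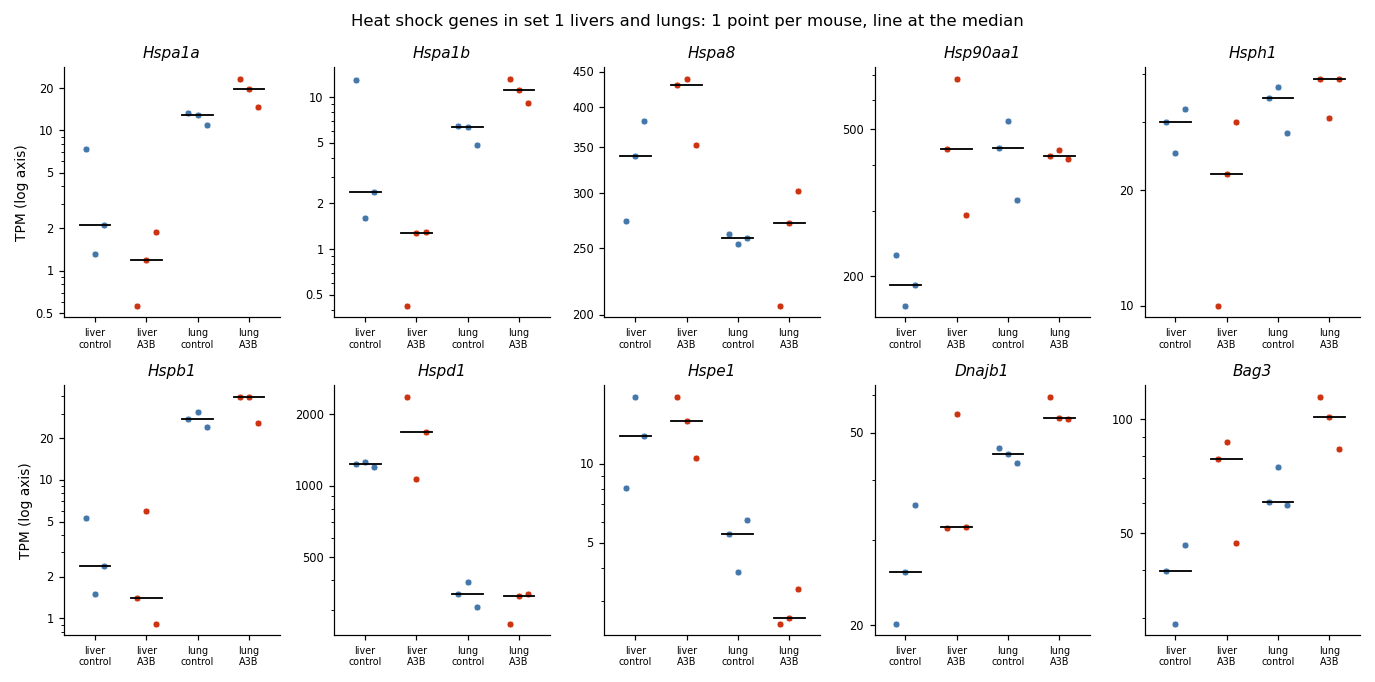
TPM of each member (log axis) in the 12 set 1 samples, 1 panel per gene, with controls in blue, A3B mice in red and a line at each group's median. Hspa1b lies between 0.424 and 1.295 TPM in A3B livers, below the controls, and between 9.20 and 13.2 TPM in A3B lungs, above the controls.

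Other genes of the chaperone network were read from 10 lists with 87 genes. In the set 2 liver 0 of the 85 tested were called by edgeR in either direction, against 1.25% of all genes higher and 2.41% lower. An unadjusted p under 0.05 was seen for 16 of them and for 3987 of 17376 genes. In the pancreas 17 of 86 were called higher and 13 lower under TMM scaling, which is near the 17.0% and 14.9% of all genes. With counts scaled by totals 83 of the 86 were called higher and 0 lower, against 70.4% and 1.10% of all genes, so the direction of these lists in the pancreas rests on the scaling. Their median log2 change was 0.24 under TMM, where that of all genes was 0.09, and 2.51 under totals, where that of all genes was 2.29. The counts were in the set 1 liver 2 of 81 higher and 0 lower, against 6.07% and 1.86% of all genes, and in the lung 9 of 84 higher and 21 lower, against 16.1% and 20.8%.

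The pancreas values that follow are TMM-scaled. The called genes nearest to the members in function included Hspb8, a small heat shock protein that works with BAG3, at 2.03 (SE 0.30, adjusted p = 0.000952), and Hsp90ab1, the constitutive HSP90, at 2.06 (SE 0.38, adjusted p = 0.00279). Bag2, an HSP70 cofactor, was at 1.96, Hspa4, another HSP110, at 0.89, and the HSF1 targets Zfand2a and Sqstm1, which serve protein disposal, at 2.28 and 1.54, all called. Among HSF1 and its regulators Ier5 was called higher (0.82) and Hsbp1, which inhibits HSF1 trimers, lower (-1.01). Of the J-domain proteins 6 of 13 were called higher and none lower, against 17.0% and 14.9% of all genes, including Dnajc2 at 1.003 and Dnaja2 at 0.88. The prefoldin subunits Pfdn5 and Pfdn1, which pass nascent actin and tubulin to the TRiC chamber, were lower at -2.38 and -1.61, as were the mitochondrial co-chaperones Hscb (-1.30) and Grpel1 (-1.19), the small heat shock gene Hspb3 (-4.15), the HSP70 cofactor Bag1 (-1.05) and the HSP90 co-chaperone Pih1d1 (-0.85). With counts scaled by totals none of the genes given here as lower was called lower. Hsbp1 (1.28), Pfdn1 (0.80), Hscb (0.99), Grpel1 (1.13), Bag1 (1.33) and Pih1d1 (1.45) were then called higher, while Pfdn5 stood at 0.026 (adjusted p = 0.954) and Hspb3 at -1.57 (adjusted p = 0.0978). Hspb3 is best known from muscle, and 7 of 9 tested muscle markers were called lower in the same comparison (median -4.61), with sums of 4.49 and 62.9 TPM in controls 45 and 168 and 11.8 to 24.6 TPM in A3B pancreases, whose part in the Hspb3 value was not tested.

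In the lung 9 of 16 HSP90 co-chaperones were called lower and 1 higher, against 20.8% and 16.1% of all genes. The lung counts here use all lungs, and the calls over all genes fell with single lungs left out, as given above. TRiC and prefoldin subunits were called lower in 5 of 14 and higher in none, and J-domain proteins higher in 5 of 13 and lower in 1. The HSP90 co-chaperone called higher was Fkbp5, a steroid receptor co-chaperone and glucocorticoid-induced gene, at 3.23 (SE 0.36, adjusted p = 0.00346). Fkbp5 was also called higher in the pancreas, at 2.44 (SE 0.56, adjusted p = 0.00825), and in the set 2 liver it stood at 1.89 (SE 0.54, adjusted p = 0.0792). Serpinh1, a collagen chaperone, fell in the lung by 1.15 on the log2 scale. Hsbp1 (-0.73), Cryab (-0.89), which encodes alpha B crystallin, Hscb (-0.66) and Pfdn1 (-0.92) were called lower there, and Bag4 (0.78) and Dnajb14 (0.42) higher.

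In livers the named genes of these lists other than Dnajb6 (1.18, SE 0.29, adjusted p = 0.0499) and Rbm3 in set 1 were not called. Rbm3, an RNA-binding protein induced by mild cold, was at 2.53 in set 1 (SE 0.59, adjusted p = 0.0446) and at 2.14 in set 2 (SE 0.65, adjusted p = 0.0948), and Cirbp, the other cold-inducible gene, at 1.95 in set 2 (SE 0.53, adjusted p = 0.0715). The summed TPM of Rbm3 and Cirbp was 91.7 to 399 in A3B livers of set 2 against 37.6 and 45.0 in controls, without overlap, as for 29.7% of all genes. In set 1, where Cirbp is listed at 0 in every sample, Rbm3 was at 317 to 1469 TPM in A3B livers against 75.5 to 170 TPM, without overlap, as for 38.9% of all genes. In the pancreas Rbm3 was at 0.62 (SE 0.34) and in the lung at 0.20 (SE 0.16), neither of them called.

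Members varied together only in part. Over the 16 set 2 samples, after subtracting each tissue's mean, the log2 CPM (counts scaled to library size) of a member and the mean of the other 9 had Pearson's r of 0.81 for Hspb1, 0.79 for Dnajb1, 0.78 for Hsp90aa1, 0.72 for Hspa1a and 0.64 for Hspa1b. It was 0.10 for Hsph1 and -0.72 for Hspe1, members whose signs in the pancreas turn with the scaling. The 3 genes outside the members with the pattern most like their mean were Ccn1, Vtcn1 and Ankrd9, each with r of 0.91. The 16 points share libraries and the split between A3B and control mice, so these values describe that split as much as any variation within groups.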

How the data were processed

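RNA of liver, lung and pancreas was sequenced from stranded TruSeq libraries as 100-base paired reads. Per the study's methods and labels, the authors quantified transcripts of set 2 with kallisto on the mouse build mm10 (GRCm38) and deposited estimated counts and TPM per transcript. For set 1 the authors deposited a table of TPM per gene. Transcript identifiers were matched without version to GENCODE M21 (116728 of 119414; the others held 0.225% to 1.46% of counts), and the deposited estimated counts of a gene's transcripts were added and then rounded. In set 1, 4 rows with repeated names were left out.

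Set 2 was tested with edgeR 4.0.16 (filterByExpr, TMM, robust glmQLFit, glmQLFTest) and set 1 with limma 3.58.1 on log2(TPM + 1) for genes with a mean TPM of at least 1, in R 4.3.3. A fold change on that scale understates the change of low genes. Each tissue was fitted alone, and the tissue differences with all 4 groups of a set and an interaction term. P-values were adjusted by Benjamini and Hochberg over all genes tested, with a threshold of 0.05, and are two-sided. The labels do not say whether set 1 samples are separate extractions, and the p-values measure the spread between these samples, each from its own mouse within a tissue.

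Named genes were the 10 members, the 2 genes of smallest p per chaperone list in each set 2 tissue and 1 in each set 1 tissue, and the 3 genes most like the members' mean. The members and lists were chosen with earlier results of these data known. On simulated counts with 200 genes changed 4-fold at a dispersion of 0.2, edgeR recovered 43.5% of the changed genes for the liver comparison (17240 genes, 5 of 92 calls false) and 39.5% for the pancreas (18748 genes, 8 of 87 calls false), so a member without a call in set 2 may still differ. The common biological coefficients of variation fitted to livers (0.570) and pancreases (0.468) have squares that exceed the simulated dispersion, so recovery in these data, above all in the liver, may be lower. On simulated log2 values for set 1, limma recovered 98% in the liver (11583 genes, 8 of 204 calls false) and 100% in the lung (13670 genes, 18 of 218 calls false). Every gene was given the same spread there (SD 0.469 in liver and 0.158 in lung), and only genes of higher TPM were changed. Recovery of noisier or lower genes, such as Hspa1a, Hspa1b and Hspb1 in set 1 livers, may be lower, so a member without a call there may still differ. Alternatives were other scalings, filters and pseudocounts (0.1), DESeq2 1.42.0, samples left out, the mouse as a block and Hspa1a and Hspa1b summed. Libraries with RNA markers of another tissue were left out in alternatives chosen after seeing the data. Same-numbered samples come from the same animal, and their deviations from the group means correlated at -0.0044 to 0.279 between liver and pancreas. Promoter sequences are RefSeq's (GRCm38.p6), and gene positions GENCODE's.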

Additional observations from a re-analysis of the deposited data

Results flagged for a closer look

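Of the groups large enough to be examined, 20 (10 members in the 6 A3B livers and the 6 A3B pancreases), 2 held a sample far from the others by Dixon's criterion, which chance passes in about 1 in 20 groups. A3B liver 49 had Hspb1 at 54.0 TPM, while the other 5 A3B livers lay between 3.58 and 15.5 TPM. A3B pancreas 44 had Hspe1 at 104 TPM, while the other 5 lay between 232 and 277 TPM.

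The A3B difference was not the same in pancreas and liver for 4 members, by edgeR's interaction test. It was more positive in the pancreas by 4.49 on the log2 scale for Hspa1b, by 4.15 for Hspb1 and by 1.37 for Dnajb1, and the value for Hspe1 was -2.01, that is, more negative in the pancreas. With the mouse as a block Hspb1 was not called and the other 3 were. Hspa1b alone was called with any 1 control sample left out. Hspe1 was not called without control liver 45, control liver 168 or control pancreas 45 (-2.08 to -1.69, adjusted p = 0.112 to 0.151), and with counts scaled by totals it was at -0.35 (adjusted p = 0.706).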

How the results depend on the processing

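Over 729 values of single members under other settings, 633 kept their direction and their side of the threshold, 42 lost the call, 31 gained one and 23 changed sign. With counts scaled by their totals, 9 members were called higher in the pancreas, where 13483 of 19142 genes were. In the pancreas minus liver difference 9 were called more positive under totals, as were 7848 of 19927 genes. Limma on log2(TPM + 1) called 9 higher in the pancreas, where it called 11405 of 13597 genes higher. Of the chaperone list genes in the pancreas, 17 were called higher and 13 lower under TMM, and 83 and 0 with totals. Without A3B livers 44 and 153, 0 members were called in the set 2 liver. Leaving out lungs 88, 70 and 74 left 1 A3B lung, so calls are not given for that fit. Without A3B pancreases 44 and 49, 5 were called in the pancreas. In the lung minus liver difference the mouse as a replicate block gave 1 call (Hspa1b) and quantile normalization 2. With the mouse as a replicate block 4 members were called in the pancreas minus liver difference, as without it, Hspa1a in place of Hspb1. With 1 sample left out, calls numbered 0 to 1 in the set 2 liver (0 without control 168), 5 to 6 in the pancreas (where leaving out control 168 removed Hspa8 and Bag3 and added Hspa1a, Hspa1b and Dnajb1, and leaving out control 45 removed Hsp90aa1 and added Hspd1), 0 to 1 in the set 1 liver (1 without A3B 70), 1 to 5 in the lung (1 without lung 87, 91, 69 or 70), 1 to 4 in the pancreas minus liver difference (1 without control livers 45 or 168 or control pancreas 45) and 0 to 1 in the lung minus liver difference (1 without control liver 11 or A3B liver 70).

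Signs turned as follows, and the cause was not tested. With totals, Hspb1 was at 0.37, Hspd1 at 0.27 and Dnajb1 at 0.039 in the set 2 liver, and Hsph1 at 1.53 and Hspe1 at 0.63 in the pancreas. With limma on log2(TPM + 1), Hspd1 was at 0.16 in the set 2 liver, and Hsph1 at 1.33 and Hspe1 at 0.59 in the pancreas, while Hspa1a did not pass the filter in the liver. Without A3B livers 44 and 153, Hspb1 was at 0.092 in the set 2 liver. With quantile normalization, Hspe1 was at -0.25 in the set 1 liver, Hsp90aa1 at -0.017 in the lung, and Dnajb1 at 0.15 and Bag3 at 0.16 in the lung minus liver difference. With 1 sample left out, Hspb1 ranged from -1.06 to 0.62 in the set 2 liver and from -0.81 to 0.12 in the set 1 liver, Hspe1 from -0.10 to 0.43 there, Hspa8 from -0.12 to 0.15 and Hsp90aa1 from -0.19 to 0.17 in the lung, and Dnajb1 from -0.42 to 0.039 in the lung minus liver difference.

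With 2 controls per tissue in set 2, a single control library decided several calls, and the depth of set 1 is unknown.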

Other observations

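The 10 members summed to 879 and 1194 TPM in the set 2 control livers and to 1120 to 2089 TPM in A3B livers, and to 208 and 414 TPM in control pancreases and 1993 to 2775 TPM in A3B pancreases. The median difference of all tested genes was 1.75 on the log2(TPM + 1) scale in that pancreas comparison, and under TMM scaling 4 of the 10 members were called higher there.

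Immediate early genes, which respond within minutes to stress and handling, summed to 11.9 and 21.6 TPM in control pancreases and to 194 to 322 TPM in A3B pancreases, with 5 of 8 called higher and none lower under TMM scaling, against 17.0% and 14.9% of all genes. In set 2 livers the sums were 69.1 and 114 TPM in controls and 99.9 to 493 TPM in A3B mice, with 0 of 8 called by edgeR. An unadjusted p under 0.05 was seen for 4 of them and for 3987 of 17376 genes. In set 1 the sums were 772 to 1831 TPM in A3B livers against 520 to 677 TPM in controls, without overlap, as for 38.9% of all genes. In lungs they were 3878 to 5276 TPM in A3B mice against 2744 to 3988 TPM, with overlap. In each tissue 1 of 8 was called higher by limma, against 6.07% of all genes in the liver and 16.1% in the lung.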
